A study of Macaca mulatta with 10 samples.

Results

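De novo fatty acid synthesis builds long-chain fatty acids from the citrate that leaves the mitochondria. *ACLY* splits citrate into acetyl-CoA, the acetyl-CoA carboxylases *ACACA* and *ACACB* make malonyl-CoA, and *FASN* joins these units into palmitate with NADPH, part of which comes from the malic enzyme *ME1*. *SCD* and *ELOVL6* then desaturate and lengthen the product. Insulin and glucose raise the transcription of these genes through *SREBF1* (the gene of SREBP-1) and *MLXIPL* (the gene of ChREBP), and *THRSP* is a small lipogenic protein that is abundant in adipose tissue and liver. These 10 genes were looked up by symbol among the 28595 Ensembl macaque genes of the files, and 8 of the 10 were found. *SCD* and *ELOVL6* were not matched by identifier and were not analysed here.

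RNA-Seq of adipose tissue and skeletal muscle came from 5 male rhesus monkeys, with 1 library per animal and tissue and 10 libraries in all. Monkey rhesus_950807 was hyperinsulinemic and heterozygous for the nonsense variation K410X of *PRKD2*, which encodes protein kinase D2, and rhesus_920401, rhesus_940129, rhesus_940313 and rhesus_950509 were controls. The hyperinsulinemic group is therefore a single animal, and what is particular to this animal and what is shared by hyperinsulinemia cannot be told apart. The sources used here give no age for these animals and no fat depot. Values are read counts per gene and RPKM, the reads per kilobase of transcript scaled to the mapped reads of the library. Libraries held 30669915 to 43268985 mapped reads, and 48.2% to 64.6% of these were counted in genes.

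The tissue labels were checked against marker genes. In controls, *ADIPOQ*, the adipocyte hormone adiponectin, was at 631 to 1491 RPKM in adipose tissue and 2.06 to 15.4 RPKM in muscle. The gene carrying the symbol *FABP4*, usually an adipocyte marker, went the other way, with 0.254 to 3.44 RPKM in control adipose tissue and 27.7 to 68.7 RPKM in control muscle. Some muscle RNA was present in adipose libraries, where *ACTA1*, skeletal muscle actin, was at 101 RPKM in rhesus_920401 and 80.9 RPKM in rhesus_940313 against 0.444 to 1.72 RPKM in the other 3. *PRKD2* itself was at 0.387 RPKM in the muscle of rhesus_950807 and 1.14 to 1.79 RPKM in control muscle, and at 3.66 RPKM in its adipose tissue and 3.27 to 6.12 RPKM in that of controls.

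The 8 genes lie on 5 chromosomes of the annotation that the files carry, whose genome build is not named. *FASN* is on the minus strand of chromosome 16, from 77549545 to 77567891, and its longest transcript has 8161 bases. *ACACA* is on the same strand of chromosome 16, from 47078588 to 47323940, with 9355 bases. *ACLY* and *SREBF1* are on that strand as well, from 51992861 to 52015593 with 1773 bases and from 17716577 to 17724076 with 3275 bases. These 4 loci on chromosome 16 do not overlap each other. *ACACB* is on the plus strand of chromosome 11, from 110249810 to 110289157, with 5331 bases. *THRSP* is on the plus strand of chromosome 14, from 76260678 to 76265348, with 1164 bases. *ME1* and *MLXIPL* are on minus strands, *ME1* on chromosome 4 from 79240111 to 79468973 with 3131 bases and *MLXIPL* on chromosome 3 from 51130034 to 51150750 with 897 bases. The models of *ACLY*, *ACACB* and *MLXIPL* are short for these proteins, so levels set between genes are approximate. *ACACB*, *ME1* and *SREBF1* each overlap 1 other annotated gene on the same strand, for *SREBF1* the microRNA gene mml-mir-33b, and reads cannot be divided between them here.

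The levels were first read in each adipose library. *FASN*, the synthase itself, was at 57.9 RPKM in control rhesus_920401, 2142 RPKM in rhesus_940129, 691 RPKM in rhesus_940313 and 801 RPKM in rhesus_950509, and at 68.7 RPKM in the hyperinsulinemic monkey. The highest control was thus 37.0 times the lowest, and rhesus_950807 lay just above the lowest control. *FASN* ranked first of all genes by reads in rhesus_940129 and rhesus_940313 and was number 2 in rhesus_950509, where it took 2.96%, 1.17% and 1.22% of the gene reads. In rhesus_920401 and rhesus_950807 it was number 157 and number 123, with 0.0794% and 0.0913% of the gene reads.

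*ACLY*, which supplies the cytosolic acetyl-CoA, had the same animals high and low at lower levels. It was at 12.6 RPKM in rhesus_920401, 116 RPKM in rhesus_940129, 61.3 RPKM in rhesus_940313, 67.6 RPKM in rhesus_950509 and 20.3 RPKM in rhesus_950807. *ACACA*, the cytosolic carboxylase whose malonyl-CoA feeds *FASN*, was at 11.1, 48.4, 36.5 and 37.1 RPKM in these controls and 13.0 RPKM in rhesus_950807. For both genes 3 controls were high, and rhesus_920401 and rhesus_950807 were low. *ME1*, a source of NADPH, was at 11.8, 44.4, 39.9 and 64.0 RPKM in the controls and at 11.5 RPKM in rhesus_950807, just below the lowest of them.

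*ACACB*, the carboxylase at the outer mitochondrial membrane, whose malonyl-CoA restrains fatty acid oxidation, was at 98.9, 286, 136 and 226 RPKM in control adipose tissue and 71.0 RPKM in rhesus_950807. *THRSP* was at 456, 1732, 1499 and 955 RPKM in controls and 777 RPKM in rhesus_950807, so that here the hyperinsulinemic monkey was closer to rhesus_950509 than to the lowest control on the RPKM scale. Among the transcription factors, *MLXIPL* was at 7.61, 23.1, 13.8 and 16.0 RPKM in controls and 6.91 RPKM in rhesus_950807. *SREBF1* did not share this split: it was at 22.9 RPKM in rhesus_920401, 15.0 RPKM in rhesus_940129, 24.1 RPKM in rhesus_940313, 14.0 RPKM in rhesus_950509 and 19.1 RPKM in rhesus_950807, and its 5 libraries lay within a narrow range.

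**Figure D1:**
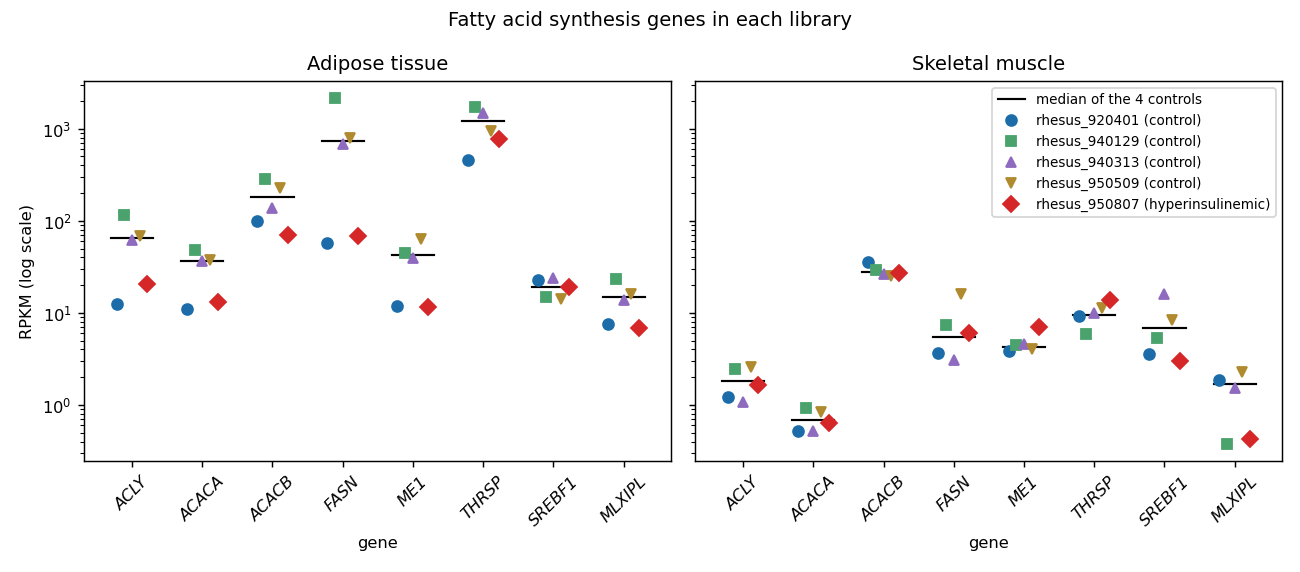
RPKM of the 8 genes (log axis) in each adipose tissue library (left) and skeletal muscle library (right); each symbol is 1 animal, the red diamond is the hyperinsulinemic monkey rhesus_950807, and the line is the median of the 4 controls. In adipose tissue rhesus_920401 and rhesus_950807 lie below the other 3 animals for every gene but *SREBF1*, with *FASN* at 57.9 and 68.7 RPKM against 691 to 2142 RPKM.

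By the control medians in adipose tissue, the order of levels per length was *THRSP* (1227 RPKM), *FASN* (746 RPKM), *ACACB* (181 RPKM), *ACLY* (64.4 RPKM), *ME1* (42.1 RPKM), *ACACA* (36.8 RPKM), *SREBF1* (19.0 RPKM) and *MLXIPL* (14.9 RPKM). Each gene's range over the controls overlapped that of the next gene in this order. Within the same library, *ACACB* was above *ACLY* and *ACLY* above *ME1* in 4 of 4 controls, by 2.22-fold or more for the first pair and as little as 1.06-fold for the second. The other neighbouring pairs kept their order in 2 or 3 of the 4 controls. The order of the 2 leading genes changed with the animal: *FASN* was 1.24 times *THRSP* in rhesus_940129 and 0.838, 0.461 and 0.127 times *THRSP* in rhesus_950509, rhesus_940313 and rhesus_920401, and it was 0.0884 times *THRSP* in rhesus_950807.

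Muscle held little of these transcripts. *FASN* was at 3.67, 7.33, 3.04 and 15.8 RPKM in the muscle of rhesus_920401, rhesus_940129, rhesus_940313 and rhesus_950509, and at 5.997 RPKM in that of rhesus_950807. *ACLY* was at 1.21, 2.45, 1.07 and 2.56 RPKM in controls and 1.64 RPKM in rhesus_950807, and *ACACA* at 0.515, 0.923, 0.521 and 0.841 RPKM and 0.639 RPKM. For these 3 enzymes the hyperinsulinemic monkey lay within the range of the controls. *ACACB* stood apart as the most abundant of the 8 genes in muscle, with 35.7, 29.3, 26.5 and 24.96 RPKM in controls and 27.4 RPKM in rhesus_950807; its lowest control was above the highest control value of any of the others.

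*ME1* was at 3.84, 4.47, 4.54 and 4.08 RPKM in control muscle and at 6.94 RPKM in rhesus_950807, above all 4 controls. *THRSP* was at 9.21, 5.92, 9.91 and 11.1 RPKM in controls and 13.7 RPKM in rhesus_950807, also above all 4. *SREBF1* was at 3.57, 5.37, 16.1 and 8.30 RPKM in controls and 3.02 RPKM in rhesus_950807, below all 4. *MLXIPL* had few reads in muscle. It had 64, 12, 59 and 74 reads in controls and 13 reads in rhesus_950807, where the exact Poisson interval of the 13 reads is 6.92 to 22.2 and covers counting error only.

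How far adipose tissue and muscle differed was tested in the 4 controls, the comparison with replicates on both sides. Of the 8 genes, 7 were higher in adipose tissue, by 2.48-fold to 49.9-fold, and *SREBF1* did not pass the test. Calls between tissues needed both an adjusted p under 0.05 in edgeR's quasi-likelihood test and a log2 difference of 1 or more in size. Over all 11173 genes tested 51.6% were called, 29.6% higher and 22.0% lower in adipose tissue. The median log2 difference was 2.87 over the 8 genes and 0.23 over all genes.

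*THRSP* was 49.9-fold higher in adipose tissue (95% interval 23.4 to 107, log2 difference 5.64, SE 0.50, adjusted p = 3.12e-06). *FASN* was 48.0-fold higher (10.4 to 222, log2 5.59, SE 1.01, adjusted p = 0.000559), with the widest interval of the 8. The value for *FASN* moved with single animals, to a log2 difference of 4.66 without rhesus_940129 and 6.36 without rhesus_950509. *ACACA* was 18.7-fold higher (9.43 to 37.2, adjusted p = 1.21e-05) and *ACLY* 13.9-fold higher (5.69 to 34.0, adjusted p = 0.000187). The difference was smaller for *MLXIPL* (3.85-fold, 1.73 to 8.59, adjusted p = 0.00739), *ME1* (3.72-fold, 1.99 to 6.94, adjusted p = 0.00195) and *ACACB* (2.48-fold, 1.46 to 4.22, adjusted p = 0.00676). The *ACACB* difference fell to a log2 of 0.93 without rhesus_940129, under the threshold of 1, and that of *MLXIPL* to 1.27 without the same animal.

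*SREBF1* had a log2 difference of -0.19 (SE 0.40, interval -1.07 to 0.69, adjusted p = 0.701). Its sign depended on how libraries are scaled. The main scaling, TMM, sets the bulk of genes equal between libraries. With the mapped totals in its place the median over all genes rose from 0.23 to 1.61, the share of called genes that were higher in adipose tissue rose from 57.4% to 89.8%, and *SREBF1* was higher in adipose tissue by a log2 difference of 1.19 (adjusted p = 0.0192). On the RPKM scale *SREBF1* in muscle was 15.6% to 66.8% of that in the adipose tissue of the same control, so it was lower in muscle in 4 of 4 animals. Relative to the bulk of genes in each library, as TMM sets it, no difference was detectable. The remaining 7 genes were higher in adipose tissue under both scalings.

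**Figure D2:**
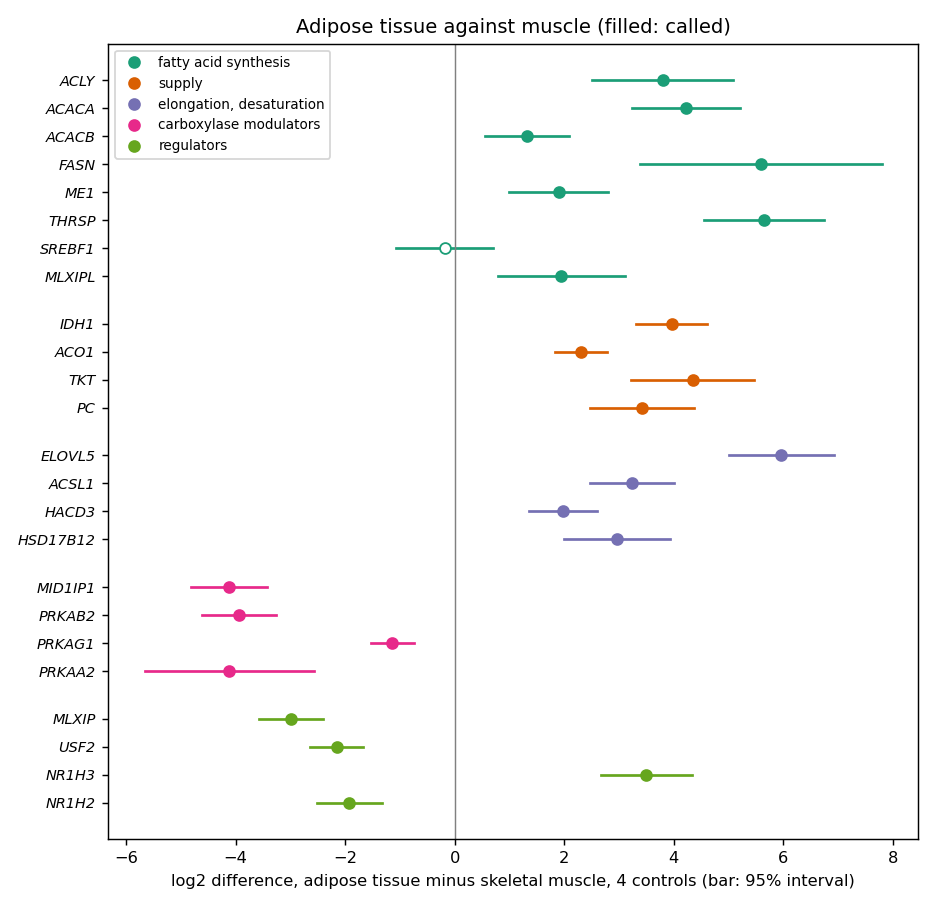
Log2 difference between adipose tissue and skeletal muscle in the 4 controls (edgeR, TMM scaling), with 95% intervals, for the 8 genes and up to 4 genes from each of 4 related lists; filled points were called. The 7 genes called run from *ACACB* at 1.31 to *THRSP* at 5.64, and *SREBF1* sits at -0.19. All 4 modulators of acetyl-CoA carboxylase shown lie below 0, *PRKAG1* among them with a sign that turns under scaling to mapped totals. Of the 6 modulators tested, the 2 above 0 are not shown.

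Within each control animal, the median of the muscle level as a share of the adipose level was 0.914% for *THRSP*, 1.21% for *FASN*, 2.09% for *ACACA* and 2.95% for *ACLY*, against 10.7% for *ME1*, 12.6% for *MLXIPL*, 15.3% for *ACACB* and 47.4% for *SREBF1*. *ADIPOQ* and *PLIN1*, which coats the fat droplet, had medians of 0.639% and 0.655%. These shares are on the RPKM scale, on which most genes were lower in muscle. With mapped totals the median log2 difference over all genes was 1.61 towards adipose tissue. Adipocyte markers varied among control muscle libraries too. *ADIPOQ* was at 8.24, 3.52, 2.06 and 15.4 RPKM in the muscle of rhesus_920401, rhesus_940129, rhesus_940313 and rhesus_950509, *PLIN1* at 5.28, 0.793, 0.833 and 8.51 RPKM, and *LEP* at 16.6, 4.83, 2.24 and 8.07 RPKM. *FASN* shared its highest animal with *ADIPOQ* and *PLIN1* but not with *LEP*. The part of adipocyte RNA in the muscle values was not tested. In these bulk libraries fewer cells of a type and less RNA per cell cannot be told apart.

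The 2 carboxylases, which catalyse the same reaction at different places in the cell, were compared as a ratio within each library, which no library scaling can change. The *ACACB* to *ACACA* ratio of RPKM was 8.92, 5.90, 3.73 and 6.09 in the adipose tissue of rhesus_920401, rhesus_940129, rhesus_940313 and rhesus_950509, and 69.3, 31.7, 50.9 and 29.7 in their muscle. Every muscle value was above every adipose value. The log2 ratio was 2.56 ± 0.52 (SD, n = 4) in adipose tissue and 5.42 ± 0.58 (SD, n = 4) in muscle, a difference of 2.86, with p = 0.0286 in a two-sided exact permutation test, the smallest p that this design allows. Paired by animal, the exact sign-flip test gave p = 0.125, also the smallest it allows. The hyperinsulinemic monkey had 5.45 in adipose tissue and 42.9 in muscle, within the control range of each tissue. The ratios rest on short gene models, so their difference between tissues is firmer than their size.

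**Figure D3:**
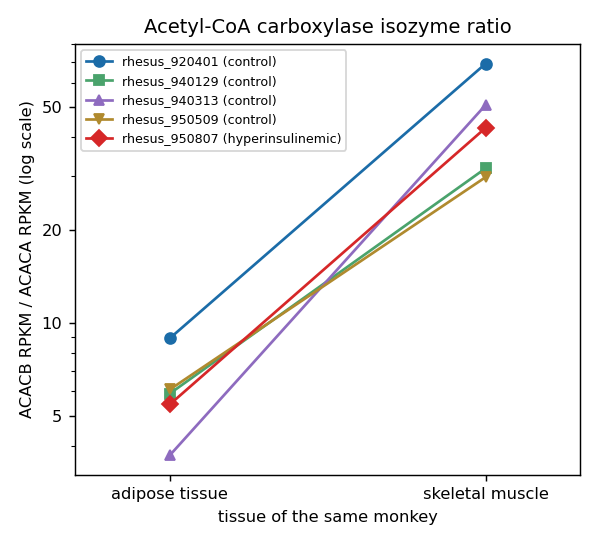
Ratio of *ACACB* to *ACACA* RPKM (log axis) in adipose tissue and skeletal muscle, with a line for each monkey and the hyperinsulinemic monkey rhesus_950807 as red diamonds. All 5 lines rise from adipose tissue (3.73 to 8.92) to muscle (29.7 to 69.3), and rhesus_950807 (5.45 and 42.9) lies inside the control range at both ends.

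The genes around the pathway were described by lists, to be read against the 29.6% of all genes called higher in adipose tissue and the 22.0% called lower. Fold and log2 differences are those of the TMM-scaled fit and not ratios of the RPKM means shown. The enzymes and carriers that supply citrate, acetyl-CoA and NADPH were higher in adipose tissue for 9 of 12 members tested and lower for 0. *TKT*, a pentose phosphate enzyme, was at 293 ± 174 RPKM in control adipose tissue and 5.61 ± 2.44 RPKM in control muscle (SD, n = 4), a 20.3-fold difference in the fit. *IDH1*, the cytosolic NADPH-producing isocitrate dehydrogenase, was 15.6-fold higher, *PC*, which makes oxaloacetate in the mitochondria, 10.7-fold, and the aconitase *ACO1* 4.95-fold. Of the other elongation and desaturation enzymes, 7 of 8 tested were higher and 0 lower. *ELOVL5*, an elongase of polyunsaturated fatty acids, was at 506 ± 223 RPKM in adipose tissue and 3.17 ± 1.29 RPKM in muscle (62.1-fold in the fit). *HSD17B12* and *HACD3*, which act in the elongation cycle, were 7.76-fold and 3.92-fold higher, and *ACSL1*, which activates fatty acids with CoA, was 9.44-fold higher.

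The modulators of acetyl-CoA carboxylase went the other way, with 4 of 6 tested lower in adipose tissue and 1 higher, where 22.0% of all genes were lower and 29.6% higher. *MID1IP1*, a paralogue of *THRSP* that promotes polymerisation of the carboxylases, was at 6.93 ± 2.28 RPKM in adipose tissue and 47.3 ± 9.22 RPKM in muscle (log2 difference -4.13 in the fit). *PRKAA2* and *PRKAB2*, subunits of the AMP-activated kinase that inhibits the carboxylases, had log2 differences of -4.12 and -3.94. *PRKAA1* and *PRKAB1*, other subunits of this kinase, were the 2 of 6 with a log2 difference above 0, and 1 was called. They were at 5.24 and 14.8 RPKM in control adipose tissue and 0.774 and 3.64 RPKM in control muscle (means). The kinase subunit *PRKAG1* was called lower (log2 -1.14) but turned to 0.24, not called, when libraries were scaled to mapped totals. *THRSP* and its paralogue *MID1IP1* thus lay on opposite sides.

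Regulators of lipogenic transcription were mixed, with 2 of 10 tested higher and 4 lower, against 29.6% and 22.0% of all genes. *NR1H3* (the liver X receptor alpha, which activates *SREBF1*) was at 25.4 ± 6.90 RPKM in adipose tissue and 0.863 ± 0.380 RPKM in muscle, an 11.3-fold difference in the fit. *MLXIP*, the paralogue of *MLXIPL* known as MondoA, was at 14.6 ± 2.62 RPKM and 44.3 ± 8.93 RPKM, a log2 difference of -2.99 in the fit, so the 2 paralogues were on opposite sides. *USF2* and *NR1H2* (the liver X receptor beta) had log2 differences of -2.16 and -1.93, which shrank to -0.77 and -0.53 with mapped totals and were then not called.

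The question that the study's groups pose is whether the hyperinsulinemic monkey differed from controls. In adipose tissue all 8 genes had a log2 difference below 0, and 0 of the 8 were called, as were 0% of the 11981 genes tested. At an unadjusted p under 0.05 there were 286 genes, and DESeq2 called 11 genes and none of these 8. The median log2 difference was -1.59 over the 8 genes and -0.06 over all genes. *FASN* had the largest estimate, a log2 difference of -3.99 (SE 1.64, interval -7.64 to -0.34, unadjusted p = 0.0352, adjusted p = 0.9999 in edgeR). *ME1* had -2.01 (-3.86 to -0.15) and *ACACB* -1.61 (-3.14 to -0.07), both with an adjusted p of 0.9999 in edgeR. The intervals of *ACLY* (-4.10 to 0.32), *ACACA* (-3.302 to 0.15) and *MLXIPL* (-2.85 to 0.16) reached just past 0, and those of *THRSP* (-2.46 to 0.84) and *SREBF1* (-1.23 to 0.85) lay across it. The sign of *SREBF1* turned to 0.01 with mapped totals.

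By level, rhesus_950807 was below all 4 controls for *ACACB*, *ME1* and *MLXIPL* and above all 4 for none, against 14.3% and 15.7% of the 11981 genes tested. For the other 5 genes it lay within the control range. The comparison depended on which controls entered the fit. Control rhesus_920401 was, with rhesus_950807, among the 2 lowest adipose libraries for 7 of the 8 genes, and without it the *FASN* difference was -4.38 (adjusted p = 0.166 in edgeR). Without the adipose libraries of rhesus_920401 and rhesus_940313, the *FASN* log2 difference was -4.65. That fit had only rhesus_940129 and rhesus_950509 as controls and left out the control lowest for *FASN*. The libraries left out had *ACTA1* at 101 and 80.9 RPKM, against 29482 and 29950 RPKM in the muscle of the same animals. They had *FASN* at 57.9 and 691 RPKM. The part of muscle RNA in this difference was not tested. With all 4 controls in the fit, a drop of *FASN* in rhesus_950807 was not separable from the spread among controls.

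In muscle 7 of the 8 genes passed the low-level filter, and 0 of the 7 were called, as were 0% of the 8306 genes tested. There were 754 genes at an unadjusted p under 0.05, and DESeq2 called 88 genes and none of these 7. *SREBF1* had a log2 difference of -1.63 (interval -3.23 to -0.02, unadjusted p = 0.0476, adjusted p = 0.551 in edgeR), and *MLXIPL*, on 13 reads, had -1.997 (-4.44 to 0.45). *ME1* and *THRSP* had 0.54 (-0.08 to 1.17) and 0.42 (-0.46 to 1.29). *ACLY* and *ACACB* had -0.33 (-1.81 to 1.15) and -0.26 (-0.89 to 0.37). *FASN* had -0.53 (-2.32 to 1.27), which turned to 0.21 without rhesus_950509. *ACACA*, below the filter, differed by -0.08 on the log2(RPKM + 0.1) scale, with p = 1.0 in an exact permutation test whose smallest p is 0.2.

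Whether the effect of the condition differed between tissues was asked with an interaction term. By that term 0 of the 8 genes were called, as were 0% of the 11270 genes tested. Unadjusted p-values under 0.05 were found for 633 genes, and DESeq2 called 11 genes and none of these 8. *ME1* had the smallest p of the 8: it was lower in the adipose tissue of rhesus_950807 and higher in its muscle, a difference between effects of -2.54 on the log2 scale (interval -4.55 to -0.52, unadjusted p = 0.0179, adjusted p = 0.813 in edgeR). *FASN* had -3.45 (-7.70 to 0.81) and *SREBF1* 1.48 (-0.52 to 3.47).

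**Figure D4:**
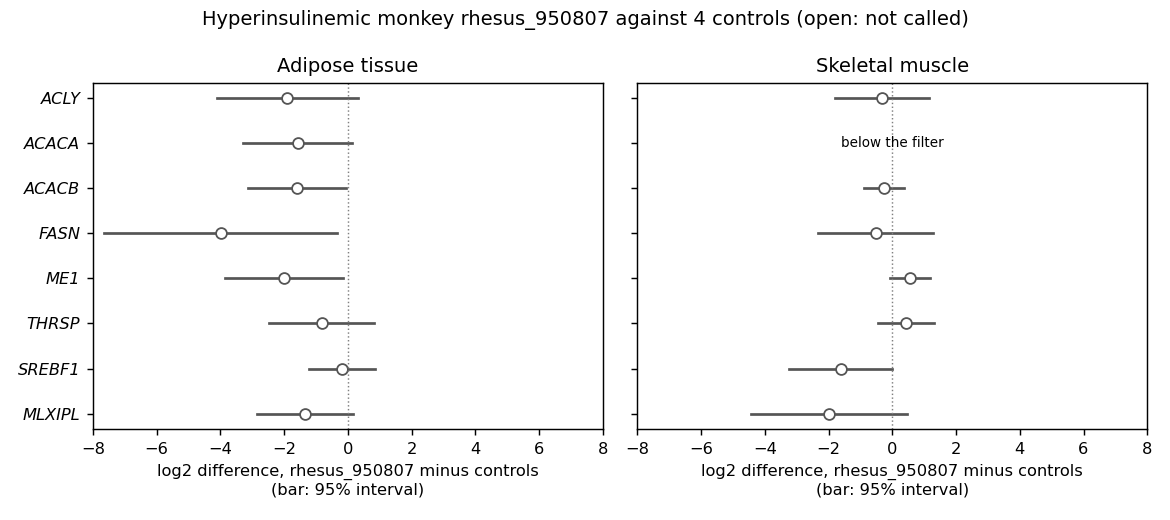
Log2 difference between monkey rhesus_950807 and the 4 controls (edgeR) in adipose tissue (left) and skeletal muscle (right), with 95% intervals; open points were not called, and *ACACA* in muscle was below the filter. In adipose tissue all 8 points lie below 0, from *FASN* at -3.99 to *SREBF1* at -0.19, while in muscle they lie between -1.997 and 0.54.

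How the genes moved together among control adipose libraries was described on log2 CPM (counts scaled to the library size) after TMM scaling, as the deviation of each library from the mean of the 4 controls. *FASN* deviated by -3.26 in rhesus_920401, 2.12 in rhesus_940129, 0.53 in rhesus_940313 and 0.61 in rhesus_950509, and rhesus_950807 was placed at -3.09. Its SD over the 4 controls was 2.30, rank 94 of the 11981 genes tested. *ACLY* had deviations of -2.10, 1.29, 0.40 and 0.41 in the same order, with rhesus_950807 at -1.48. The 7 genes other than *SREBF1* shared a split by rank, with rhesus_920401 and rhesus_950807 the 2 lowest libraries. The orders inside each set and the width of the swing differed between genes. The gap between the sets was small for some. *ACACB* was at -0.24 in rhesus_940313 and -0.91 in rhesus_920401, and *THRSP* at -0.15 in rhesus_950509 and -0.60 in rhesus_950807. The SD was 1.46 for *ACLY*, 1.12 for *ME1*, 1.03 for *ACACA*, 0.96 for *THRSP*, and 0.74 for both *ACACB* and *MLXIPL*, and it was 0.41 for *SREBF1*, close to the median over all genes of 0.45.

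Control rhesus_920401 was the lowest of the 4 control adipose libraries for 7 of the 8 genes, as it was for 18.3% of all genes tested. Control rhesus_940129 was the highest for 6 of the 8, against 37.6% of all genes. The animals rhesus_920401 and rhesus_950807 were the 2 lowest of the 5 adipose libraries for 7 of the 8 genes, against 9.66% of all genes. *SREBF1* was the exception each time that rhesus_920401 was concerned. With 4 libraries no correlation was computed, and the shared split is a description of these animals.

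The width of the swing depended on rhesus_920401. The median SD was 0.995 over the 8 genes and 0.45 over all genes, and without rhesus_920401 it was 0.49 over the 8 genes and 0.48 over all genes, with *FASN* at 0.90 and rank 1679. Leaving out any other control gave a median of 1.03 to 1.16 over the 8 genes. *FASN* had a wider swing than its pathway neighbours. The *FASN* to *ACACA* ratio of RPKM was 5.22 in rhesus_920401, 44.2 in rhesus_940129, 18.9 in rhesus_940313, 21.6 in rhesus_950509 and 5.27 in rhesus_950807, and the *FASN* to *SREBF1* ratio was 2.53, 142, 28.7, 57.1 and 3.59. In muscle the *FASN* to *ACACA* ratio was between 5.83 and 18.8 in all 5 monkeys.

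**Figure D5:**
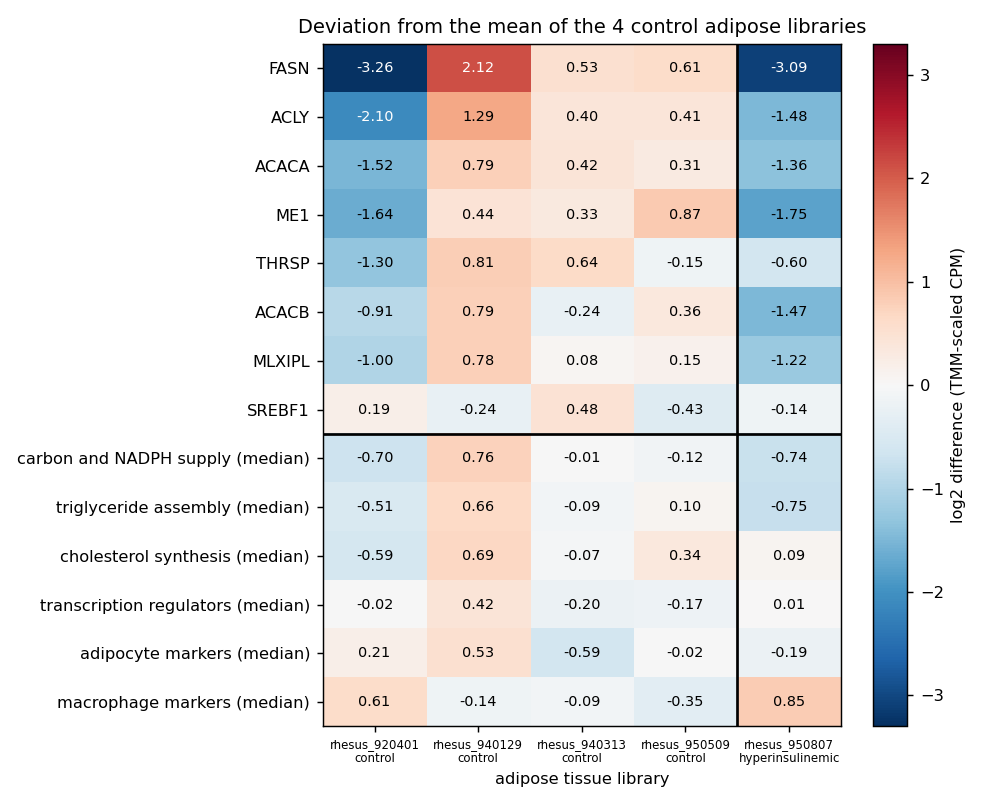
Log2 deviation of each adipose library from the mean of the 4 control adipose libraries (TMM-scaled CPM) for the 8 genes (above the line) and the medians of 6 gene lists (below it), with the hyperinsulinemic monkey in the last column; blue is lower and red is higher. The columns of rhesus_920401 and rhesus_950807 are blue for 7 of the 8 genes (*FASN* at -3.26 and -3.09), pale for the transcription regulators (-0.02 and 0.01), and red for macrophage markers (0.61 and 0.85).

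The same split of libraries was looked for in the lists, where 9.66% of all genes are the background. In the supply list, 9 of 12 genes had rhesus_920401 and rhesus_950807 as the 2 lowest, among them *PC* (deviations -1.34 and -2.06) and *TKT* (-1.23 and -0.87), with *SLC25A1*, the citrate carrier, at -1.44 and -0.74. It was 4 of 8 in the other elongation and desaturation enzymes, *ELOVL5* included, and 0 of 10 in the regulators of lipogenic transcription and 0 of 6 in the modulators of acetyl-CoA carboxylase. The counts of 0 are near that background and are no result about those lists. *MLXIPL* had the split, and *SREBF1*, *NR1H3* and *SREBF2* did not.

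By a rule of closeness to the median deviation of the 8 genes over the 5 adipose libraries, the 5 most similar of 5490 other genes of at least 5 RPKM with a symbol were *ADHFE1* (root mean square difference 0.20 on the log2 scale), *ACAT2* (0.25), *ACSM5* (0.25), *PHGDH* (0.28) and *CLMN* (0.32). The likeness was measured over 5 libraries, and the choice was not stable: leaving out 1 control kept 1 or 2 of these 5. *ACAT2*, cytosolic acetoacetyl-CoA thiolase, deviated by -1.16, 0.70, 0.11 and 0.34 in the controls and -1.80 in rhesus_950807, and *PHGDH*, the first enzyme of serine synthesis, by -1.60, 1.24, 0.04 and 0.32 and by -1.29.

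Marker sums of other cell types followed this split for some lists and not for others. The macrophage markers found, 6 of 9 listed and none at 0 in adipose tissue, summed to 311 RPKM in rhesus_920401 and 377 RPKM in rhesus_950807, above 168, 152 and 110 RPKM in rhesus_940129, rhesus_940313 and rhesus_950509. The adipocyte markers found, 9 of 11, summed to 7293 and 5786 RPKM in rhesus_920401 and rhesus_950807 and to 8223, 3621 and 5491 RPKM in the other 3. The sums of the 2 sets overlapped. *ADIPOQ* was at 867 and 726 RPKM in rhesus_920401 and rhesus_950807, and at 1491, 631 and 1477 RPKM in the others. *GPD1*, the glycerol 3-phosphate dehydrogenase, picked out after its values were seen, had the *FASN* split, with deviations of -0.70 and -1.60 in rhesus_920401 and rhesus_950807 and 263 RPKM in rhesus_950807 against 466 to 1292 RPKM in controls. Only 1 of the 9 adipocyte markers, *GPD1*, had these 2 animals as the lowest. That share is near the 9.66% of all genes and is no result about the adipocyte list. *LEP*, the leptin gene, was picked out after its values were seen. It was at 2209 and 1631 RPKM in rhesus_920401 and rhesus_950807 and at 1303, 584 and 461 RPKM in rhesus_940129, rhesus_940313 and rhesus_950509. As TMM-scaled log2 deviations, *LEP* (1.12 and 0.60) and *PLIN4* (0.88 and 0.67) had rhesus_920401 and rhesus_950807 as the 2 highest. *ADIPOQ*, *PLIN1*, *CIDEC*, *FABP4*, *LIPE*, *GPD1* and *CFD*, the other adipocyte markers found, did not. Fibroblast markers, 5 of 6 listed and none at 0, summed to 1956 and 2561 RPKM in rhesus_920401 and rhesus_950807 against 1269 to 1479 RPKM. As TMM-scaled log2 deviations, only *DCN* (0.36 and 0.56) was higher in both than in the other 3 animals. Control rhesus_920401 was under rhesus_940129 for *COL1A1* (0.22 and 0.36) and *COL3A1* (-0.16 and 0.32). It was under rhesus_950509 for *LUM* (0.37 and 0.54) and *PDGFRA* (-0.04 and 0.36). Skeletal muscle markers found, 7 of 11 listed, summed to 317 and 29.1 RPKM in rhesus_920401 and rhesus_950807. In rhesus_940129, rhesus_940313 and rhesus_950509 the sums were 35.2, 196 and 15.4 RPKM. Smooth muscle and pericyte markers summed to 1365 and 673 RPKM in rhesus_920401 and rhesus_950807 against 564 to 643 RPKM. Sums overlapped for T and NK cell (8.03 and 25.5 against 5.79 to 17.2 RPKM) and endothelial markers (154 and 189 against 104 to 157 RPKM). So they did for mesothelial (2549 and 1650 against 785 to 1975 RPKM) and erythroid markers (18.3 and 23.3 against 2.88 to 18.7 RPKM). The share of all genes with these 2 animals highest was not computed. The part of RNA from any of these cell types in the split was not tested.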

How the data were processed

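Poly(A) RNA of adipose tissue and skeletal muscle was sequenced by the authors in strand-specific libraries. The submitters' processing notes name TopHat 1.2.0, whereas the paper names another release, and only uniquely mapped reads were used. The sources used here name no genome build, annotation release or counter. The authors deposited raw read counts per gene and RPKM values, which were checked to equal reads divided by the longest transcript and the mapped total. Symbols from an Ensembl table were found for 15556 of 28595 genes (54.4%).

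Counts were tested with edgeR 4.0.16 (quasi-likelihood, TMM, two-sided, Benjamini-Hochberg, R 4.3.3) over genes whose libraries in the fit averaged 1 RPKM or more, with each tissue fitted alone for rhesus_950807, whose variation is taken to equal that of the controls. The method was also run on simulated data, whose outcome is not reported here. Alternatives were DESeq2 1.42.0, limma 3.58.1 on log2(RPKM + 1) and log2(RPKM + 0.1), other scalings and filters, 1 fit of 10 libraries, an animal block and leaving out libraries. Same-numbered libraries are the same animal, so they pair. Their deviations from the group means correlated by -0.136 to 0.158 across 11173 genes, which are not independent replicates.

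Named genes were the 8 genes found, up to 4 per list with the smallest p between tissues, tissue checks and the 5 most similar genes. Some genes that this rule selects are not reported here. Other list genes named, such as *SLC25A1*, *PRKAA1* and *PRKAB1*, were chosen after their values were seen. The genes and lists were chosen with earlier results of these data known. The replicates are separate animals.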

Additional observations from a re-analysis of the deposited data

How the results depend on the processing

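Between the tissues of the controls, 7 of the 8 genes were called higher in adipose tissue under TMM and median-of-ratios scaling, DESeq2, all filters, the animal block (which changed no call among the 8 genes) and the fit of 10 libraries, 8 of 8 with limma or mapped totals, and 6 of 8 without rhesus_940129, when *ACACB* fell to 0.93. Of all genes, 51.6% were called in the main fit and 54.01% without rhesus_940129. In limma with a pseudocount of 1 and 0.1 it was 62.9% and 69.95%, and with mapped totals 70.2%. Of the calls in these 3 fits, 89.4%, 89.6% and 89.8% were higher in adipose tissue, against 57.4% in the main fit. The 8 of 8 is to be read against this general shift towards adipose tissue. The filter at 5 RPKM left 3325 called genes because 6131 were tested. *SREBF1*, at -0.19, became 1.24 and 1.36 in limma with a pseudocount of 1 and 0.1, 1.19 with mapped totals and 0.17 with the filter at 5 RPKM, and leaving out 1 control gave -0.48 to 0.16. *PRKAG1* turned to 0.24 in both limma fits and with mapped totals. In adipose tissue against rhesus_950807, *SREBF1* turned to 0.049 and 0.053 in the limma fits with a pseudocount of 1 and 0.1, 0.012 with mapped totals and 0.19 without the libraries of rhesus_920401 and rhesus_940313, and ranged from -0.31 to 0.0078 with 1 control left out. There the genes called were 11 by DESeq2, 33 without the 2 libraries, 1 of them among the 8 genes, and 0 to 6 with 1 control left out, the 6 without rhesus_920401. In muscle they were 88 by DESeq2, 1 in each limma fit, 1 with median-of-ratios scaling, 10 without a filter, 3 with mapped totals and 0 to 14 with 1 control left out, the 14 without rhesus_940313. *FASN* in muscle ranged from -0.81 to 0.21 with 1 control left out. For the difference between effects DESeq2 called 11, and *MLXIPL* turned to -0.19 in limma with a pseudocount of 1. The median SD of the 8 genes ranged from 0.49 to 1.16 with 1 control left out. The difference in the carboxylase ratio was 2.86 with the replicate block (exact sign-flip p = 0.125), and 2.56 to 3.05 with 1 control left out (exact permutation p = 0.1, the smallest that 3 against 3 allows). The causes were not tested. Leaving out the 2 adipose libraries does not apply to muscle and was not run there. In muscle, depth limits *MLXIPL* and *ACLY*, with 12 to 74 and 82 to 165 reads in controls.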

Other observations

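Related lipid pathways were set beside fatty acid synthesis. Of the genes of triglyceride assembly, 7 of 8 tested were higher in control adipose tissue than in control muscle and 0 lower (edgeR), against 29.6% and 22.0% of all genes. *GPAM*, which starts glycerolipid synthesis, was at 168 ± 68.9 RPKM in adipose tissue and 0.839 ± 0.216 RPKM in muscle (SD, n = 4), a 78.0-fold difference in the TMM-scaled fit. *DGAT2*, which adds the last acyl chain, was 47.9-fold higher, *AGPAT2* 19.3-fold and the glycerol channel *AQP7* 5.09-fold. Of the cholesterol synthesis genes, 6 of 9 tested were higher and 0 lower, against the same shares of all genes, with *DHCR7* 5.68-fold and *LSS* 4.86-fold higher.

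Among the adipose libraries, rhesus_920401 and rhesus_950807 were the 2 lowest of 5 for 4 of 8 triglyceride assembly genes and 2 of 10 cholesterol synthesis genes, against 9.66% of all genes. The median deviations of cholesterol synthesis were -0.59 in rhesus_920401 and 0.09 in rhesus_950807, and those of triglyceride assembly were -0.51 and -0.75. Against the controls, no gene was called in the adipose tissue of rhesus_950807 (edgeR), in these lists or among all genes tested. The absence of calls is therefore no result about these lists. These lists are descriptions and no test compared them with the fatty acid synthesis genes.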
